A study of Mus musculus with 6 samples.

Results

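Elastic fibres and the microfibrils that scaffold them were described through 10 genes: the fibrillins Fbn1 and Fbn2, elastin (Eln), the microfibril-associated glycoproteins Mfap2 and Mfap5, the latent TGF-β binding proteins Ltbp1 and Ltbp2, and the fibulins Fbln1, Fbln5 and Efemp1. Members were all probe sets that the platform annotation pairs with exactly 1 of these genes. Of 34945 probe sets of a single gene, 18 were members, and they read 9 of the 10 genes. Fbn1 had no such probe set, so its level was not analysed here. All 9 measured genes were among the 10916 tested of 18193 genes on the array.

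RNA of osteocytes was hybridised to 6 Affymetrix arrays, osteocytes being the cells embedded in bone matrix. The knockout group had 3 arrays of ERαΔOcy/ΔOcy mice, in which the estrogen receptor ERα was removed from osteocytes, and the control group had 3 arrays of littermates called wild type in the sample labels and ERαflox/flox in the protocol. Both groups carried Dmp1-GFP, a green fluorescent protein driven by the Dmp1 promoter, and all mice were females of strain C57/BL6, aged 10 to 12 days. Calvariae freed of their sutures were digested 6 times, fractions 4 to 6 were kept, and green cells were sorted through a gate that passed 10% to 15% of the cells when mice carried the marker and 0.8% to 1.0% when they did not. The promoter that drove Cre, and whether controls carried Cre, were not stated in the labels. The design gives 3 unpooled mice per genotype, whereas the protocol speaks of pooled calvarial tissue, so p-values measure the spread between arrays and may not measure that between mice.

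Microfibrils are beaded filaments built of fibrillins. Elastin monomers are deposited on them with the help of fibulins and are then crosslinked by lysyl oxidases into an elastic core. Microfibrils also hold TGF-β and BMP family growth factors, TGF-β through the latent TGF-β binding proteins. In bone, which holds little elastin, fibrillins are known for their control of TGF-β and BMP activity.

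Markers of the labelled cell type were read first. Dmp1 lay above about 98.3% of probe sets or more by mean level with each of its 3 probe sets. Its promoter drove the marker used for sorting, so it does not test the label. The brighter probe set of Phex lay above 98.3% of probe sets. Mepe lay lower, with deposited signals of 51.4, 60.7 and 59.2 in knockout arrays, against 48.8, 14.3 and 46.2 in control arrays. The dimmer Phex probe set lay above 51.7% of probe sets and those of Sost above 72.6% and 27.2%. Fgf23 was under the level filter. Of the 3 probe sets of Esr1, the gene of ERα, only the dimmest had groups that did not overlap, with signals of 1.0, 1.0 and 2.5 in knockout arrays and 20.2, 11.6 and 13.3 in control arrays. The deleted part of Esr1 and the positions of these probe sets were not known here, so Esr1 does not check the labels. Control replicate 2 stood apart: the summed signal of 18 skeletal muscle markers was 5175.8, 4846 and 22617.1 on the knockout arrays, against 39219.6, 233.3 and 33017.7 on control arrays 1, 2 and 3. Member differences are also given without that array. The controls then left are those with the most muscle signal, so genotype and muscle signal cannot be told apart there.

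No member passed the threshold with all 6 arrays. Levels are log2(signal + 16) after quantile normalisation, and a difference is the knockout mean minus the control mean on that scale. By limma, 0 of the 9 measured genes had an adjusted p under 0.05, where 0% of all genes tested did. At an unadjusted p under 0.05, 3 members were higher and 0 lower in knockout arrays, against 5.85% of all genes higher and 4.69% lower. The same 3 genes, Mfap2, Ltbp2 and Fbln1, were those in which every knockout array lay above every control array, which held for 9.23% of all genes, with 17% of genes having no overlap in either direction. Positive differences were found for 8 of 9 members, against 5270 of all 10916 genes tested. The median member difference was 0.18, against -0.01 over all genes tested. Without control replicate 2, 6 of 9 members were positive, against 5343 of all 10916 genes. In these bulk samples, fewer cells of a type and less RNA per cell cannot be told apart.

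**Figure D1:**
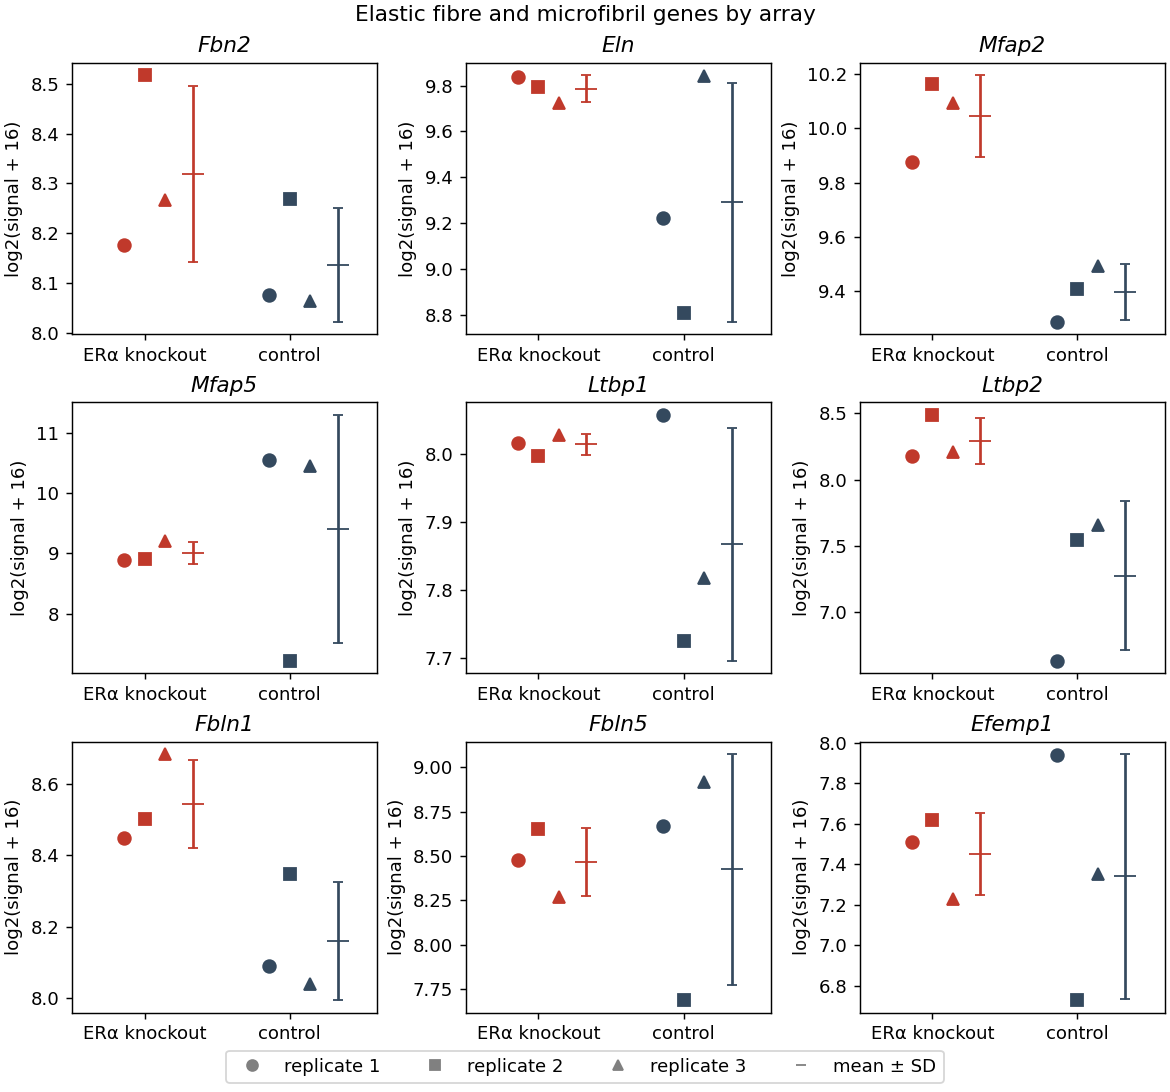
Log2(signal + 16) of the brightest probe set of each of 9 genes on each array, with knockout arrays at the left of each panel and control arrays at the right; bars give the mean and SD of 3 arrays, and each panel has its own axis, which does not start at 0. Mfap2, Ltbp2 and Fbln1 have all knockout arrays above all control arrays, and control replicate 2 (square) is the lowest array for Eln, Mfap5, Ltbp1, Fbln5 and Efemp1.

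Promoter windows of these 3 genes are shown because they were the members without overlap between the groups. Each window is from RefSeq (GRCm38.p6) and runs from 250 bases before to 50 bases after a transcription start. Capitals mark GGGCGG, the GC box bound by Sp family factors, and AGGTCA, the half-site that estrogen receptors and other nuclear receptors can bind, on either strand. For each gene the window listed first in the RefSeq table was taken, at chr4:141010431-141010730 (plus strand) for Mfap2, chr12:84876442-84876741 (minus strand) for Ltbp2 and chr15:85205699-85205998 (plus strand) for Fbln1.
Mfap2: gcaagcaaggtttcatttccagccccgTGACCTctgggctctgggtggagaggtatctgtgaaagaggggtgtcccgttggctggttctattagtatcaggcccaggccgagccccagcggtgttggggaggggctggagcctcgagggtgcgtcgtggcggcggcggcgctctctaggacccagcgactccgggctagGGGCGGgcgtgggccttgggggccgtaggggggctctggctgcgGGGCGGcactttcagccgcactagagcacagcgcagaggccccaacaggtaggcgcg
Ltbp2: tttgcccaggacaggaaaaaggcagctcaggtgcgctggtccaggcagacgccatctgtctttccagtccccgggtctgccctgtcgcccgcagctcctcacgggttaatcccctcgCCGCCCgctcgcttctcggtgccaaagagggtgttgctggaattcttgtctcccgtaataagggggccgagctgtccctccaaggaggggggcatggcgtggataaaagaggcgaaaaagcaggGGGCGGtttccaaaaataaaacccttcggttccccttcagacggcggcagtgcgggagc
Fbln1: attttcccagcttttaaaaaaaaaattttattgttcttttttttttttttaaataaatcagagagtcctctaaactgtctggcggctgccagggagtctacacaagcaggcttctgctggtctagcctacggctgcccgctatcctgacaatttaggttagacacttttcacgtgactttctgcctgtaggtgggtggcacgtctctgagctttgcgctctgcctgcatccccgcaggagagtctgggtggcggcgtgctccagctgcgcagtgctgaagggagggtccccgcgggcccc
The Mfap2 window held 2 GC boxes and 1 half-site, the Ltbp2 window 2 GC boxes and 0 half-sites, and the printed Fbln1 window neither motif, while the other RefSeq window of Fbln1 did hold a GC box. RefSeq windows were counted for 7 of the 10 genes, 11 windows in all, among them Fbn1, whose level was not measured. Windows on 1 chromosome were left out of the member windows but kept among all windows. GGGCGG occurred in 6 of the 11, and in 35.7% of all 32851 windows. AGGTCA occurred in 3 of the 11, of Mfap2 and Fbln5, and in 16.3% of all windows. The palindrome of AGGTCA and its reverse complement around 3 free bases, the layout of a full estrogen response element, occurred in 0 of the 11 and in 0.0548% of all windows, and TATAAA in 0 of the 11 and 13.6%. These counts describe the letters of these windows only.

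Fibrillins form the backbone of the microfibril, and Fbn2, the fibrillin used mainly in development, was the fibrillin gene measured. Its log2 levels were 8.18, 8.52 and 8.27 in knockout replicates 1, 2 and 3, against 8.08, 8.27 and 8.06 in control replicates 1, 2 and 3. This gave a difference of 0.18 ± 0.12 (SE, limma adjusted p = 0.629), with a 95% confidence interval from -0.10 to 0.47, and control replicate 2 lay above knockout replicates 1 and 3. It was 0.25 without control replicate 2 (limma adjusted p = 0.394). The dimmer Fbn2 probe set gave 7.43, 7.77 and 7.24 in knockout arrays and 7.17, 7.19 and 6.82 in control arrays, without overlap. In the fit over 20967 probe sets its difference was 0.42 ± 0.17 (SE, limma adjusted p = 0.458). Groups did not overlap in 16.7% of all probe sets tested.

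Mfap2 encodes microfibril-associated glycoprotein 1, a small protein that binds fibrillin and active TGF-β. It had the smallest p of the members. Deposited signals were 899.5, 1089.4 and 1348.9 in knockout replicates 1, 2 and 3, against 634.0, 621.1 and 611.0 in control replicates 1, 2 and 3. The control arrays lay within 1.04-fold of each other, and every knockout array was above all of them. Log2 levels averaged 10.04 ± 0.15 in knockout and 9.40 ± 0.10 in control arrays (SD, n = 3 each), a difference of 0.65 ± 0.11 (SE, 1.57-fold, limma adjusted p = 0.183) with an interval from 0.40 to 0.90. Ranked by p, it stood at place 21 among the 10916 genes. Without control replicate 2 the difference was 0.65 with an adjusted p of 0.0388 by limma, where 2.67% of all genes passed, 0.788% as higher. A second, dimmer Mfap2 probe set did not repeat this: it gave 7.21, 6.59 and 6.32 in knockout arrays and 5.85, 7.26 and 6.72 in control arrays, a difference of 0.09 ± 0.36 (SE, limma adjusted p = 0.949). Its name carries the array maker's x mark for probes that can match other transcripts. The mean of both probe sets differed by 0.37 (limma adjusted p = 0.596).

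Mfap5, which encodes microfibril-associated glycoprotein 2, was the member with a negative difference. This protein binds fibrillins and, through an RGD motif, integrins, and its transcript is known as a marker of adventitial fibroblasts. Deposited signals were 445.9, 442.5 and 723.6 in knockout arrays, against 1538.2, 122.2 and 1214.8 in control replicates 1, 2 and 3. Knockout arrays thus lay between control replicate 2 and the other controls. The control arrays spanned 12.6-fold, a wider log2 range than in 99.7% of genes tested, while the knockout arrays spanned 1.64-fold. With all arrays the difference was -0.40 ± 0.81 (SE, limma adjusted p = 0.889), with an interval from -2.28 to 1.48. The other probe set had log2 levels of 7.92, 8.02 and 8.001 in knockout arrays and 9.53, 6.90 and 9.36 in control replicates 1, 2 and 3, the same order. Without control replicate 2 the Mfap5 difference was -1.50 ± 0.12 (SE, limma adjusted p = 0.00581), where 1.88% of all genes passed as lower. Without control replicate 1 it was 0.17, and without control replicate 3 it was 0.12, so leaving out either of these arrays turned the direction.

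The mean levels of the skeletal muscle and fibroblast lists moved with Mfap5 across the arrays, though not each fibroblast marker did. The centred level of 14 tested skeletal muscle markers was -0.61, -0.60 and 0.81 in knockout replicates 1, 2 and 3, against 1.88, -3.22 and 1.74 in control replicates 1, 2 and 3. Of the 18 muscle markers with a probe set, 5, 4 and 1 had signals under 16 in the knockout arrays, against 0, 12 and 0 in the control arrays, and none was at 0 on any array. For 16 tested fibroblast and adventitial markers the level was -0.16, -0.19 and -0.06 in knockout arrays and 0.45, -0.51 and 0.47 in control arrays. With control replicate 2 left out, 14 of 14 muscle markers and 13 of 16 fibroblast markers were lower in knockout arrays. Their medians were -2.15 and -0.34, and 5573 of all 10916 genes tested were lower. In that comparison 6 fibroblast markers passed as lower by limma, among them Clec3b (-2.23), Pi16 (-1.61) and Cd34 (-1.43), and 1, Sfrp2, passed as higher (0.88). Of all genes, 1.88% passed as lower and 0.788% as higher. The part of muscle and fibroblast cells in the Mfap5 values was not tested.

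**Figure D2:**
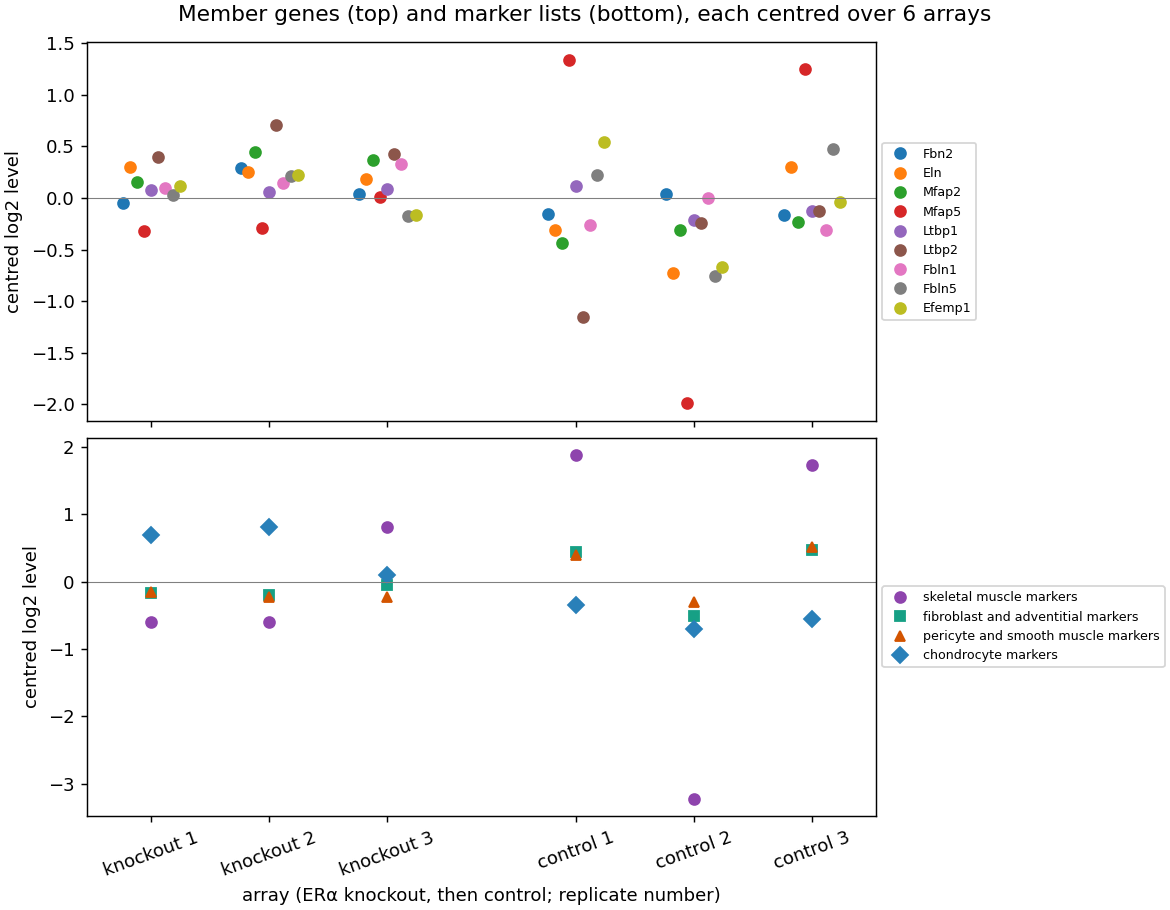
Centred log2 level on each array (knockout arrays at the left, control arrays at the right) of 9 member genes in the upper panel and of 4 marker lists in the lower panel, where a list's point is the mean of its tested genes. Mfap5 runs with the skeletal muscle and fibroblast lists in the control arrays, where control replicate 2 is low in all of them, while Mfap2 and Ltbp2 do not follow them.

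The genes nearest to Mfap5 and Mfap2 over the 6 arrays differed. Pearson's r of log2 levels was used as a description, over arrays that share 1 normalisation. Mfap5 was nearest to Atp2a1, the calcium pump of fast skeletal muscle (r = 0.998), then to Mllt3 (0.996), Itih5 (0.994), Hacd1 (0.993) and the cardiac and embryonic muscle troponin Tnnt2 (0.993). Of 10615 genes compared, 383 had r above 0.9 with Mfap5. Mfap2 was nearest to Maoa (0.987), Exosc5 (0.985), Camkk2 (0.985), Prrx2, a homeobox factor of craniofacial mesenchyme (0.983), and Prrt4 (0.982), and 188 genes had r above 0.9. Among members, Mfap2 had r of 0.91 with Ltbp2 and 0.84 with Fbln1, and Mfap5 had 0.88 with Fbln5 and 0.76 with Efemp1. Mfap2 and Mfap5 had -0.19 with each other.

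Elastin itself was read by a pair of probe sets. The brighter had log2 levels of 9.84, 9.80 and 9.72 in knockout replicates 1, 2 and 3, against 9.22, 8.81 and 9.84 in control replicates 1, 2 and 3. Control replicate 3 stood level with the knockout arrays and the other controls lay below. The difference was 0.49 ± 0.23 (SE, 1.41-fold, limma adjusted p = 0.511), with an interval from -0.05 to 1.04. The dimmer probe set had deposited signals of 48.9, 66.8 and 80.1 in knockout arrays and 11.5, 6.4 and 71.4 in control arrays, the same pattern with a difference of 0.96 ± 0.49 (SE, limma adjusted p = 0.535). Without control replicate 2 the difference of the brighter probe set was 0.25, and without control replicate 3 it was 0.77.

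Latent TGF-β binding proteins resemble fibrillins in their repeats. Ltbp2, which does not bind latent TGF-β and joins fibrillin microfibrils, had the largest difference of the 9 genes. Its single probe set gave deposited signals of 266.8, 326.7 and 353.1 in knockout arrays, against 88.5, 157.7 and 161.2 in control replicates 1, 2 and 3. All knockout arrays were above all control arrays, and control replicate 1 was the lowest. That array was also low in the mean of 11 tested macrophage and osteoclast markers, though not in each of them. Their centred level was 0.27, 0.14 and -0.16 in knockout arrays, against -0.99, 0.35 and 0.39 on control arrays 1, 2 and 3. Their summed signal was 11779.7, 11775.7 and 11374.5 in knockout arrays and 5930.6, 12425.4 and 10302.6 in control arrays, with none of 12 markers at 0. The part of these cells in the Ltbp2 values was not tested. Log2 levels averaged 8.29 ± 0.17 in knockout and 7.28 ± 0.56 in control arrays (SD, n = 3 each), a difference of 1.01 ± 0.26 (SE, 2.02-fold, limma adjusted p = 0.311) with an interval from 0.40 to 1.63. With the deposited scaling in place of quantile normalisation, Ltbp2 was the 1 member past the threshold (1.16, limma adjusted p = 0.0239), where 0.275% of all genes passed. That scaling moved the median of all genes to 0.14. The Ltbp2 difference was 0.69 without control replicate 1, and 1.15 without control replicate 2 (limma adjusted p = 0.0912).

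Ltbp1, which does carry latent TGF-β into the matrix, was close to even. The brightest of its 3 probe sets gave 8.02, 7.998 and 8.03 in knockout arrays, against 8.06, 7.73 and 7.82 in control replicates 1, 2 and 3. This gave a difference of 0.15 ± 0.11 (SE, limma adjusted p = 0.682), with an interval from -0.12 to 0.41, and control replicate 1 lay above all knockout arrays. Without control replicate 2 it was 0.076. Only 1.20% of genes tested had a smaller range between knockout arrays. The other probe sets were below the level filter, with signals of 3.4 to 27.3 on all arrays.

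Fibulins link microfibrils to elastin and to basement membranes. Fbln1, a fibulin found in elastic fibres and around developing mesenchyme, had log2 levels of 8.45, 8.50 and 8.68 in knockout replicates 1, 2 and 3, against 8.09, 8.35 and 8.04 in control replicates 1, 2 and 3. No control array reached a knockout array, and control replicate 2 came closest. The difference was 0.39 ± 0.12 (SE, 1.31-fold, limma adjusted p = 0.377), with an interval from 0.10 to 0.67, and 0.48 without control replicate 2 (limma adjusted p = 0.0839). All 3 Fbln1 probe sets had separate groups, where 16.7% of all probe sets tested did. The second gave 8.08, 8.25 and 8.62 in knockout arrays and 7.80, 7.84 and 7.69 in control arrays, a difference of 0.54 ± 0.15 (SE, limma adjusted p = 0.308). The third was under the level filter, with signals of 27.1, 17.6 and 26.9 in knockout arrays and 2.0, 10.7 and 8.9 in control arrays.

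Fbln5, which brings elastin and lysyl oxidase-like enzymes together on the microfibril, had log2 levels of 8.48, 8.65 and 8.27 in knockout replicates 1, 2 and 3, against 8.67, 7.69 and 8.92 in control replicates 1, 2 and 3. Control replicates 1 and 3 lay above the knockout arrays and control replicate 2 below them. The difference was 0.04 ± 0.30 (SE, limma adjusted p = 0.977), with an interval from -0.65 to 0.74, and -0.33 without control replicate 2 (limma adjusted p = 0.319). Its other probe set was under the level filter, with signals of 1.3 to 8.4.

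Efemp1, which encodes fibulin-3, a fibulin of fascia and connective tissue, had 7.51, 7.62 and 7.23 in knockout replicates 1, 2 and 3, against 7.94, 6.73 and 7.35 in control replicates 1, 2 and 3. The knockout arrays lay inside the span of the controls. The difference was 0.11 ± 0.28 (SE, limma adjusted p = 0.914), with an interval from -0.55 to 0.77, and -0.19 without control replicate 2. Without control replicate 1 it was 0.41.

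Control arrays varied more than knockout arrays for some members and less for others. Control replicate 2 was the lowest of the 6 arrays in 5 of 9 members (Eln, Mfap5, Ltbp1, Fbln5 and Efemp1), against 21.8% of all genes, and no knockout array was the lowest in any member. The log2 range of the controls was 1.03 for Eln, 1.02 for Ltbp2, 1.23 for Fbln5 and 1.21 for Efemp1, each wider than in about 93.6% of genes tested or more. For Mfap2 and Fbn2 it was 0.20, below their knockout ranges of 0.29 and 0.34, with a median over all genes of 0.34.

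**Figure D3:**
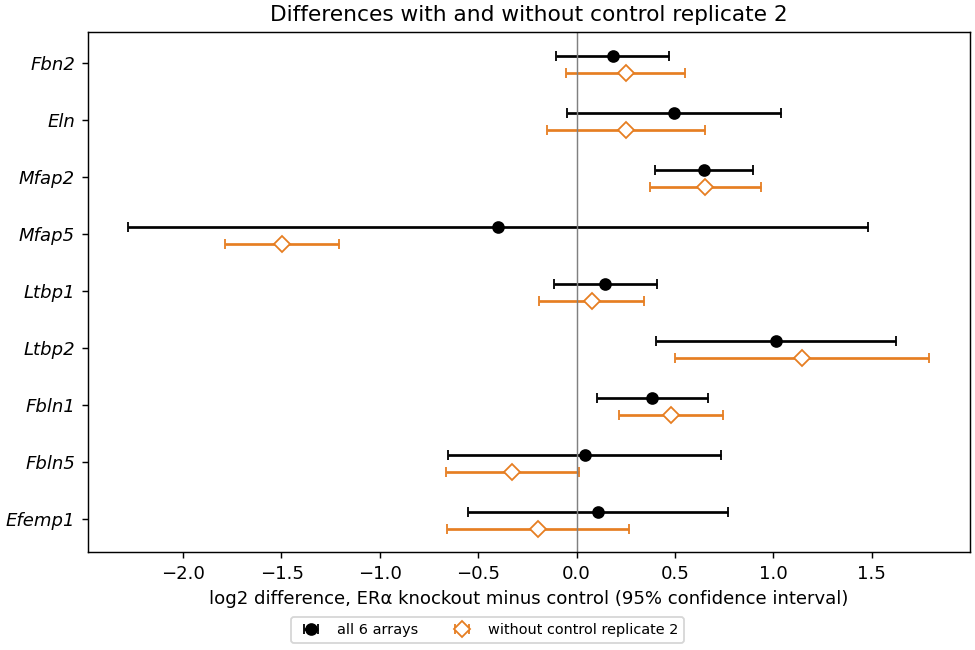
Log2 difference (knockout minus control) of each gene with its 95% confidence interval from limma, with all 6 arrays (filled circles) and without control replicate 2 (open diamonds). Intervals of Mfap2, Ltbp2 and Fbln1 lie above 0 in both fits before adjustment over all genes, and Mfap5 has the widest interval with all arrays and lies at -1.50 without control replicate 2.

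Over probe sets, 14 of the 18 passed the level filter and 4 did not. Of the 14, 12 had positive and 2 negative differences, with a median of 0.28, where that of all probe sets tested was -0.01. Knockout arrays lay above all control arrays for 5 (1 each of Fbn2, Mfap2 and Ltbp2, and 2 of Fbln1). Of all probe sets, 16.7% had no overlap in either direction. None passed 0.05 by limma, with adjusted p between 0.140 and 0.977, where 0% of all probe sets passed and 10.4% had an unadjusted p under 0.05. Of the 14, 5 had an unadjusted p under 0.05.

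Other genes of the elastic fibre and microfibril, a list of 36, had a probe set for 30 and were tested for 28. By limma 0 passed, 19 differences were positive and 9 negative, and the median was 0.11, where 5270 of all 10916 genes were positive. Groups did not overlap in 4 higher and 3 lower genes, against 9.23% and 7.76% of all genes. Thsd4, which encodes ADAMTSL6, a protein that promotes fibrillin microfibril assembly, had the largest difference, with 7.12 ± 0.10 in knockout and 6.40 ± 0.23 in control arrays (SD, n = 3 each), 0.73 ± 0.15 (SE, limma adjusted p = 0.215). Vcan, the proteoglycan versican, which binds fibrillin and fibulins, differed by 0.45 ± 0.09 (SE, limma adjusted p = 0.214). Emilin3, of the elastin interface proteins, differed by 0.36 ± 0.13 and Emilin2 by -0.60 ± 0.19 (SE, limma adjusted p = 0.416 and 0.377). Loxl3, a crosslinking enzyme, differed by -0.23 ± 0.09 (SE, limma adjusted p = 0.457).

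Crosslinking enzymes and further relatives of the members went both ways. Lox, the main lysyl oxidase, lay at -0.01 ± 0.11, Loxl1, the elastin-directed enzyme, at 0.33 ± 0.13 and Loxl4 at 0.10 ± 0.15 (SE). Ltbp3 and Ltbp4 lay at 0.09 ± 0.08 and 0.01 ± 0.18, and Fbln2 at 0.08 ± 0.15 (SE). Fbln7 was at -0.30 ± 0.36 (SE) with all arrays. Without control replicate 2 it was the 1 gene of this list past the threshold (-0.76, limma adjusted p = 0.0445), beside 0 higher. Of all genes, 1.88% passed as lower in that fit. With the deposited scaling 24 of the 28 differences were positive, with a median of 0.26 where that of all genes was 0.14, and 7 higher and 0 lower genes had no overlap, against 12.4% and 0.77% of all genes under that scaling. Under it Lox was at 0.14, and Emilin2 (-0.46) and Loxl3 (-0.082) had groups that overlapped.

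**Figure D4:**
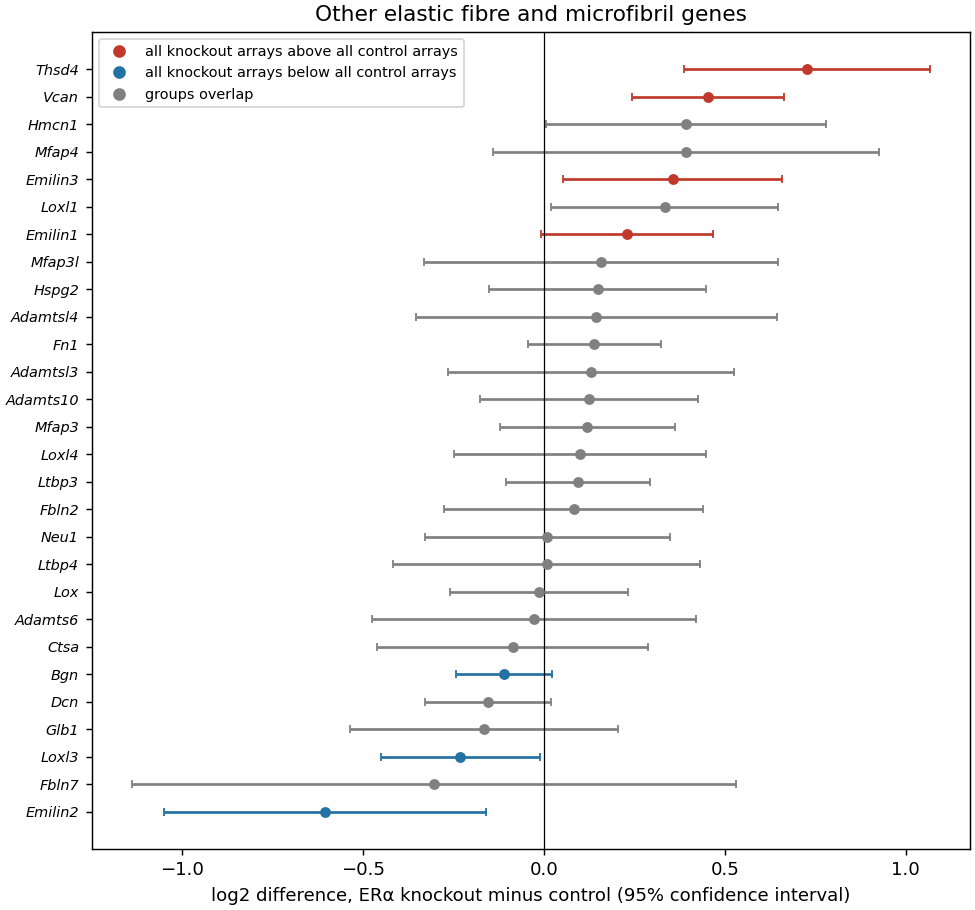
Log2 difference (knockout minus control, all 6 arrays) and 95% confidence interval from limma for the 28 tested genes of the list of other elastic fibre and microfibril genes, sorted by size. Colour marks the 4 genes with all knockout arrays above all control arrays and the 3 with all below; Thsd4 is at the top with 0.73 and Emilin2 at the bottom with -0.60.

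A list of growth factors that microfibrils bind, of integrins and of a few other genes was tested for 16 of its 18 genes. Differences were positive for 8 and negative for 8, with a median of 0.02. They became 13 positive and 3 negative with the deposited scaling. Tgfb2, a TGF-β ligand, was the 1 gene of the 16 without overlap, where 17% of all genes had none. It lay at 8.67 ± 0.07 in knockout and 8.16 ± 0.30 in control arrays (SD, n = 3 each), a difference of 0.51 ± 0.15 (SE, limma adjusted p = 0.367). Bmp4, a bone morphogenetic protein, lay at -0.45 ± 0.25 (SE, limma adjusted p = 0.568). With control replicate 2 left out it lay past the threshold (-0.75, limma adjusted p = 0.0417), where 1.88% of all genes passed as lower. Proteases that can cut elastin were tested for 7 of 12, with 6 positive differences, 1 negative and a median of 0.30. Among them was Mmp9, a protease that osteoclasts make in large amounts and a member of the macrophage and osteoclast list too. Mmp9 differed by 1.55 ± 0.29 (SE, limma adjusted p = 0.203). It passed with the deposited scaling (1.71, limma adjusted p = 0.000113), where 0.275% of all genes passed.

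Chondrocyte markers lay higher in the knockout arrays, as did Mfap2, Ltbp2 and Fbln1. Their centred level was 0.69, 0.81 and 0.10 in knockout replicates 1, 2 and 3, against -0.34, -0.71 and -0.55 in control replicates 1, 2 and 3, with 13 of 15 tested markers higher and 11 of them without overlap, where 9.23% of all genes were higher without overlap. Col11a2, a cartilage collagen, had groups apart the other way (-0.41), where 7.76% of all genes did. By limma 0 chondrocyte markers passed with all arrays. Without control replicate 2, 5 passed as higher, against 0.788% of all genes, and with the deposited scaling 9 passed, against 0.275% of all genes. None of the 16 markers with a probe set was at 0 on any array, and their summed signal was 11354.2 to 13777.8 in knockout and 6986.4 to 9145 in control arrays. The part of chondrocytes in these values was not tested.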

How the data were processed

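The authors deposited 1 signal intensity per probe set and array, on a linear scale, made with GCOS, the array maker's software, per the submitters' processing notes. Its version, background correction and target level were not stated, and no detection calls were used, and the number of arrays limits the precision. Array medians were 21.3, 20.2 and 28.5 in knockout and 22.7, 20.5 and 18.7 in control replicates 1, 2 and 3. Of 45101 probe sets, 64 controls were left out, 34945 had 1 gene, 932 several and 9160 were unnamed here, and 34741 took a current RefSeq symbol. Log2(signal + 16) was quantile normalised, so fold changes understate those of dim genes. Each gene was read by its brightest probe set on average, and the lowest 40% of 18193 genes were left out. Limma 3.58.1 in R 4.3.3 (lmFit, eBayes with a trend, 2-sided, Benjamini-Hochberg over 10916 genes, or over 20967 probe sets, threshold 0.05) compared knockout with control, with no covariate, and was tested on simulated data. List levels average the tested genes of a list, each centred over the 6 arrays. Members and lists were chosen with earlier results of these data known. Named genes were all members, up to 4 genes per other list with an unadjusted p under 0.05 and no overlap, by smallest p, and the 5 genes with the highest r for the higher and the lower member with the smallest p. Not all genes that met this rule were named, for example in the chondrocyte, osteocyte and osteoblast lists. Dmp1, Phex, Mepe and Esr1 were named in addition to the rule. Loxl1, Lox, Loxl3, Loxl4, Col11a2, Ltbp3, Ltbp4, Fbln2, Fbln7, Bmp4, Clec3b, Pi16, Cd34, Sfrp2, Sost and Fgf23 were named outside the rule, once their values were known. Alternatives covered scaling, pseudocount, filter, probe set summary, trend, array weights, replicate block and leaving out each array.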

Additional observations from a re-analysis of the deposited data

How the results depend on the processing

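Over 17 alternatives, Fbn2, Eln, Mfap2, Ltbp1, Ltbp2 and Fbln1 stayed positive in every one, with ranges of 0.08 to 0.32, 0.25 to 0.77, 0.37 to 0.80, 0.08 to 0.29, 0.69 to 1.20 and 0.32 to 0.54. Leaving out 1 array gave -1.50 to 0.17 for Mfap5, -0.33 to 0.29 for Fbln5 and -0.19 to 0.41 for Efemp1. Mfap5 turned to 0.17 without control replicate 1 and 0.12 without control replicate 3. Fbln5 turned to -0.33 without control replicate 2, -0.05 without knockout replicate 2 and -0.090 with array weights, and Efemp1 to -0.19 without control replicate 2. The cause was not tested. By limma 0 genes and 0 members passed with all arrays (1151 genes at an unadjusted p under 0.05). Leaving out 1 array gave 0 to 291 genes (0 to 86 higher, 0 to 205 lower) and 0 to 2 members, the counts above 0 all without control replicate 2. The deposited scaling gave 30 genes, 30 of them higher, and 1 member, and median centring gave 1 gene, higher, and 0 members. With the replicate number as a block 0 genes and 0 members passed, and the adjusted p of Mfap2 was 0.488. The r of deviations from group means was -0.38, 0.10 and -0.04 for same-numbered arrays 1, 2 and 3. Pairs of different numbers ran from -0.34 (knockout 3 with control 2) to 0.42 (knockout 3 with control 1). With 3 arrays per group these r cannot exclude a pairing, and the labels give only a number. Adjusted p over all alternatives ran from 0.0388 to 0.623 for Mfap2, from 0.0239 to 0.715 for Ltbp2 and from 0.0839 to 0.750 for Fbln1. The median over all genes was 0.14 under the deposited scaling and -0.01 after quantile normalisation. With no detection calls, probe sets with signals under 16 carry little information.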

Other observations

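Pericyte and smooth muscle markers had 12 of 13 tested genes lower in knockout arrays (median -0.44), and Rgs5, Kcnj8, Abcc9 and Notch3 had groups without overlap, where 7.76% of all genes were lower without overlap. Arachnoid and meningeal markers were higher for 6 of 8, with a median of 0.33, and Slc47a1, Cldn11, Zic1 and Foxd1 had groups without overlap, where 9.23% of all genes were higher without overlap. Of 13 osteocyte markers 5 were higher and 8 lower (median -0.03), and of 8 osteoblast genes 3 were higher and 5 lower (median -0.06). With the deposited scaling these became 8 of 13 and 7 of 8 higher, and fibroblast markers 8 of 16 higher, where the median of all genes was 0.14. Endothelial markers were higher for 7 of 11 (median 0.12), and macrophage and osteoclast markers for 6 of 11 (median 0.00). Fibroblast markers were lower for 11 of 16 and skeletal muscle markers for 9 of 14 with all arrays (medians -0.16 and -0.48). By limma 0 genes of these lists passed with all 6 arrays.

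Fbn2, Mfap2, Ltbp1 and Fbln1 varied less between control arrays than the median gene, while the control range of Mfap5 was 3.33 on the log2 scale, against 0.33 between its knockout arrays.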
